A study of Mus musculus with 2 samples.

Results

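The miRNAs described here are 10 miRNA genes known for roles in differentiating and mature neurons: Mir137, Mir153, Mir138-1, Mir138-2, Mir128-1, Mir128-2, Mir132, Mir212, Mir218-1 and Mir218-2. They were chosen by name, through the GENCODE M21 symbol of their gene ID, and make up 10 of the 1973 miRNA genes counted. Small RNA was sequenced from the hindbrain of healthy B6NCrl mouse embryos at embryonic day 12.5, with no treatment or mutation named. The series holds 1 group of 2 libraries, made from male and female embryos pooled, with 120 embryos in replicate 1 and 88 in replicate 2. There is thus no contrast between conditions, and the values describe levels in the whole dissected tissue, where fewer cells of a type and less RNA per cell cannot be told apart.

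A miRNA is cut from a hairpin precursor, and either arm of the hairpin (5p or 3p) can be loaded into an Argonaute protein. The loaded miRNA pairs with messenger RNAs mainly through its seed, bases 2 to 8, so miRNAs with the same seed share many targets. In the developing nervous system such miRNAs act as progenitors leave the cell cycle and as neurons extend processes and form synapses. At this stage the hindbrain holds dividing progenitors in the ventricular zone beside newly formed neurons, motor neurons of the cranial nerves among them.

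The sequences below are the arms for which these miRNAs are best known, with the seed in capitals, taken 5′ to 3′ from RefSeq on GRCm38.p6; all 10 genes matched that table. They are shown because the seed groups the 10 genes into 6 families and because identical copies limit what was counted.
mmu-miR-137-3p: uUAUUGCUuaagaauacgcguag
mmu-miR-153-3p: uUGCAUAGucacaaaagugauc
mmu-miR-138-5p: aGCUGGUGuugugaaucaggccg
mmu-miR-128-3p: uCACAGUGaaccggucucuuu
mmu-miR-132-3p: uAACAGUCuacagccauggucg
mmu-miR-212-3p: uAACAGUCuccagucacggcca
mmu-miR-218-5p: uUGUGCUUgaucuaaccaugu
The arms of miR-132 and miR-212 carry the same seed and differ after it. Those of miR-138, miR-128 and miR-218 are each held, letter for letter, by 2 hairpins in the table, whereas those of miR-137, miR-153, miR-132 and miR-212 are held by 1 hairpin each.

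The hairpin copies differ in their other arm, shown next with the longest run that both copies share in capitals.
mmu-miR-138-1-3p: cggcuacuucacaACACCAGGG
mmu-miR-138-2-3p: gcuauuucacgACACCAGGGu
mmu-miR-128-1-5p: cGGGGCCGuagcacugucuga
mmu-miR-128-2-5p: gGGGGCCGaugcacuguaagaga
mmu-miR-218-1-3p: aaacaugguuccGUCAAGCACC
mmu-miR-218-2-3p: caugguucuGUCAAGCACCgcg
Over the whole hairpins the longest identical run was 24 bases between the miR-138 copies, 23 between the miR-128 copies and 22 between the miR-218 copies, each of which contains the whole shared arm. Between Mir132 and Mir212 it was 10 bases. The deposited counts exclude reads that match several genomic positions, so a read that lies wholly within such a shared run is counted for neither copy. The 6 copy genes are therefore marked as sharing sequence, and their values give no total for miR-138, miR-128 or miR-218. The counts also merge both arms of a hairpin, so which arm the reads came from was not measured.

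The libraries had 2764276 and 3946444 counts assigned to miRNA genes on the gene's strand in replicates 1 and 2. Levels below are counts per 1000000 of these (CPM), with mean ± SD over the 2 libraries (n = 2), and a count of 0 would allow up to 1.09 and 0.760 CPM. Intervals and these limits cover counting error only, since reads without molecular identifiers are not independent molecules. Reads that match several positions made up 32.7% and 33.4% of all reads, and the share of them that came from these 10 genes is not known. A miRNA read spans a whole arm, so CPM was compared between genes without dividing by length, and where the order changes per 100 bases of hairpin this is stated. Among marker miRNAs of the tissue, the 3 miR-124 genes that mark neurons summed to only 13.4 and 12.7 CPM and share sequence with each other, so the neuronal name of the 10 genes could not be checked on them. The progenitor markers with a row in the tables (Mir9-2, Mir9-3 and Mir92b) summed to 11120 and 7492 CPM, nearly all of it from Mir92b (10751 and 7092 CPM). Mir9-3 had 367 and 398 CPM, the opposite direction, and Mir9-2 had 7 counts in each library.

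Mir137 and Mir153, each with a single hairpin, had the highest CPM of the 10 genes. Mir137 (ENSMUSG00000065569.1) makes a miRNA that regulates the proliferation and differentiation of mouse neural stem cells and the growth of dendrites. It had 9020 counts or 3263 CPM in replicate 1, with 13191 counts or 3343 CPM in replicate 2 and a mean of 3303 ± 56.2 CPM. The libraries lay close together, with exact Clopper-Pearson 95% intervals of 3196 to 3331 and 3286 to 3400 CPM that overlap. The hairpin lies on chromosome 3 from 118433857 to 118433929 on the plus strand of GRCm38, in an exon of the noncoding gene Gm26871.

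Mir153 (ENSMUSG00000065538.1) encodes a miRNA that represses components of synaptic vesicle release. It had 3639 counts or 1316 CPM in replicate 1, with 6371 counts or 1614 CPM in replicate 2 and a mean of 1465 ± 211 CPM. Mir137 exceeded it in both libraries, 2.48-fold in the first and 2.07-fold in the second, and the ranges did not overlap. The hairpin is on chromosome 12 from 117250817 to 117250885 on the plus strand, in an intron of Ptprn2, a gene of neuroendocrine secretory granules. An intron of the antisense gene Gm5441 spans the same position, and Mir153 had no count on the opposite strand in either library.

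The miR-138 copies followed. In rat hippocampal neurons miR-138 limits the size of dendritic spines. Mir138-1 (ENSMUSG00000065414.1, chromosome 9, 122682876 to 122682974, plus strand) had 394 CPM in replicate 1, with 518 CPM in replicate 2 and a mean of 456 ± 87.9 CPM. Mir138-2 (ENSMUSG00000065512.2, chromosome 8, 94324311 to 94324381, plus strand) had 221 CPM and 263 CPM, a mean of 242 ± 29.3 CPM. Both libraries gave more reads to Mir138-1, and the ranges of the copies did not overlap. The ratio of Mir138-1 to Mir138-2 was 1.78 in replicate 1 (exact 95% interval 1.61 to 1.97) and 1.97 in replicate 2 (1.83 to 2.13). M21 places Mir138-1 in an exon of the transcribed pseudogene Gm47135 and Mir138-2 in an exon of the lincRNA C78859.

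The miR-128 copies lie in introns of protein-coding genes. In mouse, miR-128 dampens neuronal excitability and, during neuronal differentiation, represses nonsense-mediated decay. Mir128-1 (ENSMUSG00000065520.1), in R3hdm1 on chromosome 1 from 128202361 to 128202430 on the plus strand, had 283 CPM in replicate 1, with 190 CPM in replicate 2 and a mean of 236 ± 66.0 CPM. Mir128-2 (ENSMUSG00000065441.1), in Arpp21 on chromosome 9 from 112118636 to 112118711 on the minus strand, had 173 CPM and 132 CPM, a mean of 152 ± 28.9 CPM. Both copies were lower in replicate 2, and every library of Mir128-1 was above every library of Mir128-2. The ratio of Mir128-1 to Mir128-2 was 1.64 in replicate 1 (1.46 to 1.84) and 1.44 in replicate 2 (1.28 to 1.61).

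Mir132 and Mir212 sit side by side on the plus strand of chromosome 11, separated by 203 bases, in an intron of the noncoding gene 1700016P03Rik. This locus is induced by neuronal activity through the transcription factor CREB, and miR-132 promotes neurite outgrowth in rat neurons. Mir132 (ENSMUSG00000065537.1, 75173682 to 75173747) had 207 CPM in replicate 1, with 234 CPM in replicate 2 and a mean of 221 ± 18.8 CPM. Mir212 (ENSMUSG00000065590.1, 75173388 to 75173478) had 51 counts or 18.4 CPM in replicate 1, with 115 counts or 29.1 CPM in replicate 2 and a mean of 23.8 ± 7.56 CPM. Although the genes are neighbours on the same strand, Mir132 exceeded Mir212 by 11.2-fold in replicate 1 (8.43 to 15.3) and by 8.03-fold in replicate 2 (6.61 to 9.83). Neither shares a run of 20 bases with another annotated hairpin. Matches elsewhere in the genome were not examined here, for these or the other genes, and would remove reads as well.

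The miR-218 hairpins lie in introns of Slit2 and Slit3, which encode secreted guidance cues for axons, and miR-218 is known in mouse from motor neurons. Mir218-2 (ENSMUSG00000065583.1), in Slit3 on chromosome 11 from 35616816 to 35616925 on the plus strand, had 528 counts or 191 CPM in replicate 1, with 1016 counts or 257 CPM in replicate 2 and a mean of 224 ± 47.0 CPM. Mir218-1 (ENSMUSG00000065603.1), in Slit2 on chromosome 5 from 48223942 to 48224051 on the plus strand, had 59 counts or 21.3 CPM and 92 counts or 23.3 CPM, a mean of 22.3 ± 1.39 CPM. Most miR-218 reads placed at a single position thus fell on the Slit3 hairpin. They made up 89.9% of the reads of both hairpins in replicate 1 and 91.7% in replicate 2, and the ratio of Mir218-2 to Mir218-1 was 8.95 (6.83 to 11.9) in replicate 1 and 11.0 (8.91 to 13.8) in replicate 2. Reads of the shared miR-218-5p arm alone are in neither count, so this ratio is one of the reads that tell the hairpins apart and not of the hairpins' output. The only other genes in the RefSeq table whose mature miRNA has the seed of a miR-218 arm printed above were Mir7002, for miR-218-5p, with 1 and 2 counts, and Mir496b, for miR-218-1-3p, with 0 counts in both libraries.

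**Figure D1:**
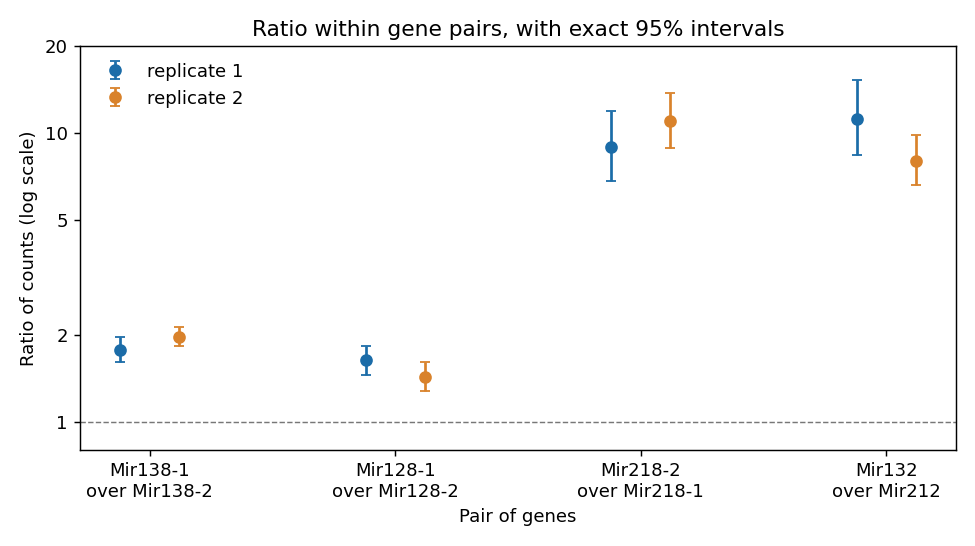
Ratio of the counts of 2 genes within each library (y axis, log scale) for 4 pairs (x axis); points are replicates 1 and 2, bars are exact 95% binomial intervals, and the dashed line marks equal counts. The counts of the miR-138 and miR-128 copies differ by 1.44-fold to 1.97-fold. Mir218-2 over Mir218-1 and Mir132 over Mir212 lie between 8.03 and 11.2, and the intervals of the 2 libraries overlap for every pair. Reads of the shared arm alone of miR-138, miR-128 or miR-218 are counted for neither copy.

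Ordered by mean CPM, the 10 genes ran from Mir137 and Mir153 through 6 genes from Mir138-1 at 456 CPM down to Mir128-2 at 152 CPM, with Mir212 at 23.8 and Mir218-1 at 22.3 CPM last. Of the 9 pairs of neighbours in this order, 5 were apart, every library of one gene being above every library of the other. The 4 pairs whose ranges overlapped were Mir138-2 with Mir128-1, Mir128-1 with Mir218-2, Mir218-2 with Mir132, and Mir212 with Mir218-1. Among these, Mir128-1 was above Mir138-2, Mir218-2 and Mir132 in replicate 1 and below all 3 in replicate 2, so its place in the order depends on the library. Mir218-2 and Mir132 also changed places between the libraries, while Mir138-2 was above both in each. Per 100 bases of hairpin, Mir132 came before Mir218-2 and no longer overlapped with it, while Mir218-2 overlapped with Mir128-2. The miR-138, miR-128 and miR-218 copies lack the reads within their shared runs. Where they are involved, the order is one of counted reads only.

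**Figure D2:**
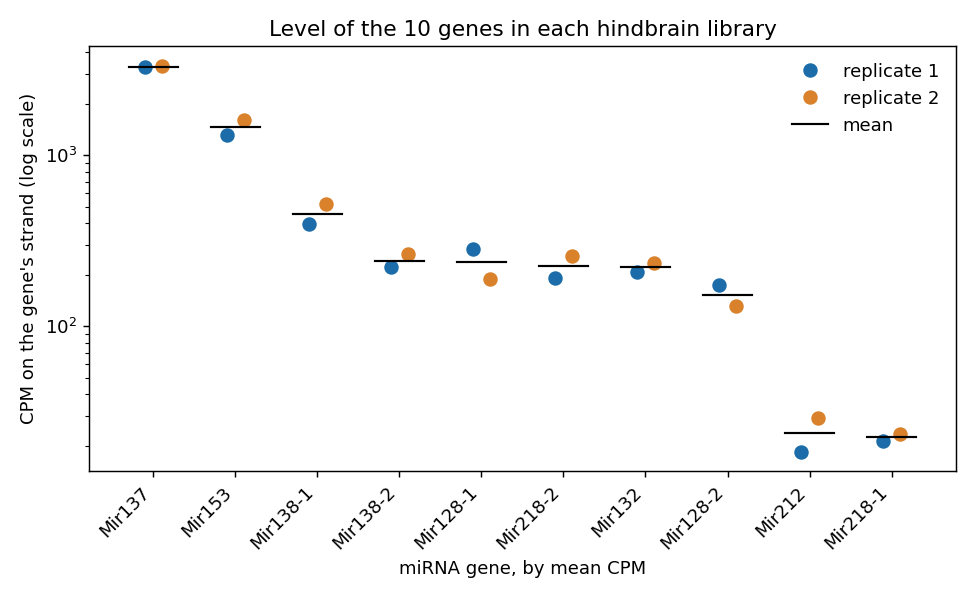
CPM on the gene's strand (y axis, log scale) of each of the 10 genes (x axis, by mean CPM); points are replicates 1 and 2 and the bar is their mean. Mir137 at 3303 and Mir153 at 1465 CPM stand above the others, Mir212 (23.8 CPM) and Mir218-1 (22.3 CPM) stand lowest, and Mir128-1 and Mir128-2 are the 2 genes with replicate 1 above replicate 2. Values of the miR-138, miR-128 and miR-218 copies leave out reads of their shared arm alone.

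Together the 10 genes held 0.609% of the assigned counts in replicate 1 (exact 95% interval 0.600% to 0.618%) and 0.660% in replicate 2 (0.652% to 0.668%). The family of miR-137 gave 53.6% of their summed counts in replicate 1 and 50.6% in replicate 2, and that of miR-153 gave 21.6% and 24.4%, so these 2 genes led the sum in both libraries. The miR-138 copies gave 10.1% and 11.8%. The miR-128 copies gave 7.49% and 4.87%, those of miR-218 gave 3.49% and 4.25%, and Mir132 with Mir212 gave 3.71% and 3.98%. The order of miR-218 and of Mir132 with Mir212 in this sum differed between the libraries. The miR-138, miR-128 and miR-218 copies lack the reads that lie within their shared runs, so these shares do not give the order of the families. The 4 genes with no shared run held 0.481% and 0.522% of all assigned counts, and the 6 copy genes held 0.128% and 0.138%.

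All 10 genes were detected, meaning at least 10 counts in both libraries, where 371 of all 1973 genes (18.8%) were. The median of their mean levels was 230 CPM, against 183 CPM over all detected genes, and 7 of the 10 lay above that median. Their ranks ran from 62 to 288. Mir137 ranked 62 and Mir153 ranked 88 among all genes, and these were the 2 of the 10 among the 105 genes at 1000 CPM or more. Mir138-1 ranked 142, Mir212 ranked 284 and Mir218-1 ranked 288. The ranks of the 6 copy genes leave out reads of their shared arm, so the place of miR-138, miR-128 and miR-218 among the detected miRNAs is not known. Sharing a run of 20 bases was more common among the 10 genes (6 of 10) than among detected genes (87 of 371, 23.5%), which follows from which families were chosen.

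The genes next to the 3 leading ones in rank show which miRNAs had like levels. Mir137 stood between Mir1983 (3904 CPM in the first library and 2806 CPM in the second) and Mir139 (3642 and 2929 CPM), both of which differed more between the libraries than Mir137 did. Mir153 stood between Mir101b (1449 and 1538 CPM) and Mir34c (1368 and 1506 CPM). Mir138-1 stood between Mir339 (438 and 490 CPM) and Mir148a (446 and 422 CPM). Likeness here is only closeness of the mean level over 2 libraries, since 1 group gives no pattern across conditions.

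**Figure D3:**
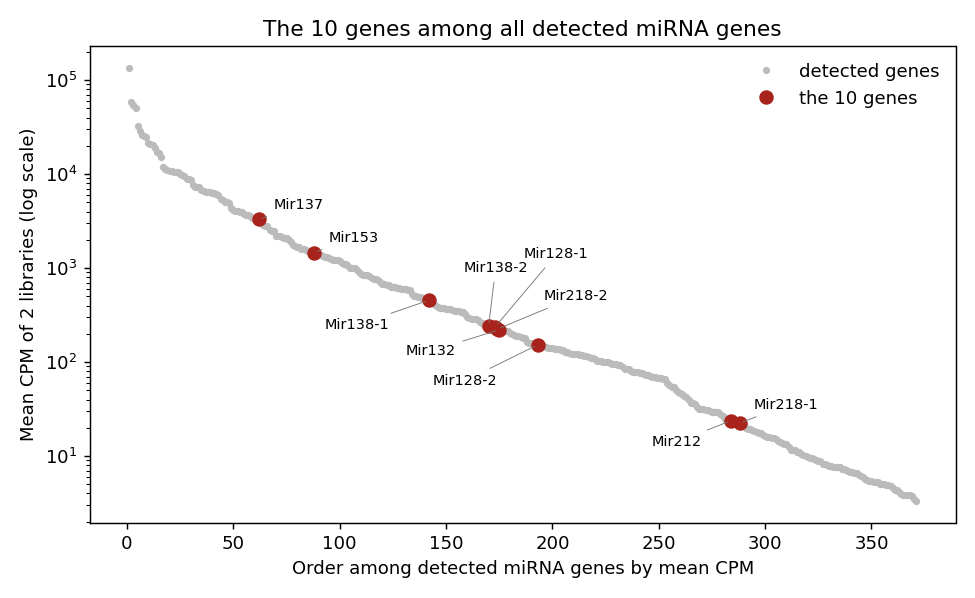
Mean CPM of 2 libraries (y axis, log scale) against the order among the 371 detected miRNA genes (x axis); grey points are all detected genes and red points the 10 genes. Mir137 and Mir153 lie above 1000 CPM, 6 of the genes lie between 152 and 456 CPM, and Mir212 and Mir218-1 lie at 23.8 and 22.3 CPM. Values of the miR-138, miR-128 and miR-218 copies leave out reads of their shared arm alone.

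A list of 24 other miRNA genes known from neurons and neural progenitors was read beside the 10. Of these, 23 had a row under their symbol, Mir9-1 being the exception, and 20 were detected, with a median of 147 CPM over the 23. The highest were Mir135b (5300 CPM in replicate 1 and 4904 CPM in replicate 2), Mir134 (1234 and 1590 CPM), Mir433 (1076 and 1043 CPM) and Mir330 (447 and 413 CPM). Mir135b was the only gene of the list above Mir137 in mean CPM and exceeded it in both libraries. Mir134, a dendritic miRNA of rat neurons encoded in the imprinted Dlk1-Dio3 region, overlapped with Mir153. At the low end, Mir124a-3 had 3 counts in each library, at the limit that a count of 0 allows. In this list 11 of the 23 genes share a run of 20 bases with another hairpin, the miR-124 and miR-9 genes among them, and their values lack reads that match several copies.

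Of the 10 genes, Mir137 was the closest between the libraries. For each gene a two-sided exact binomial test set the counts of replicate 2 against those of replicate 1, with Benjamini-Hochberg adjustment over the 393 genes that averaged 10 counts or more. It compares the reads of these libraries, not conditions. With a 2-fold minimum beside an adjusted p under 0.05, none of the 10 genes was called, where 3.56% of the 393 genes were. At an unadjusted p under 0.05, 8 of the 10 genes differed, where 56.0% of the 393 did. Without a minimum fold 8 of the 10 were called at the adjusted p, where 51.7% of the 393 genes were. The test counts reads as independent, whereas the libraries varied by 17.5% beyond counting error over the tested genes (the square root of edgeR's common dispersion).

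Of the 8 genes, 6 were higher in replicate 2 (Mir153, Mir138-1, Mir138-2, Mir218-2, Mir132 and Mir212), where 25.2% of the 393 were called as higher. The other 2, Mir128-1 and Mir128-2, were lower in replicate 2, where 26.5% of the 393 were called as lower. Mir212 was farthest apart, at 1.57-fold (log2 ratio of replicate 2 over replicate 1 of 0.65, adjusted exact p = 0.0126), on 51 and 115 counts. It was also the only one of the 10 called at 1.5-fold or more, where 9.92% of the 393 genes were. Mir128-1 had a log2 ratio of -0.58 (adjusted exact p = 2.9e-14) and Mir128-2 one of -0.39 (adjusted exact p = 6.1e-05). Both miR-128 copies moved the same way, and the interval of their ratio in replicate 1 overlapped that in replicate 2. The cause was not tested. Mir138-1 (0.40), Mir138-2 (0.25) and Mir218-2 (0.43) had positive log2 ratios, as had Mir153 (0.29) and Mir132 (0.17); the call of Mir132 was lost with TMM scaling. Mir137 (log2 ratio 0.03, adjusted exact p = 0.132) and Mir218-1 (0.12, adjusted exact p = 0.705) were not called. In the list of other neuronal miRNAs, none of the 20 tested genes was called at 2-fold, where 3.56% of the 393 genes were. Without a minimum fold 8 of the 20 were called, where 51.7% of the 393 genes were.

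The median absolute log2 ratio was 0.34 for the 10 genes, against 0.24 for all 393, and 9 of the 10 lay within 1.5-fold, against 84.5% of the 393. Markers of other cell types also moved between the libraries. The skeletal muscle markers Mir206 and Mir133b, both detected, summed to 152 CPM in the first library and 592 CPM in the second. Nearly all of this came from Mir206 (146 and 579 CPM). Of other muscle miRNAs, looked up after their values were seen, Mir1a-1 and Mir133a-1 had 0 counts in both libraries. Mir133a-2 had 0 counts in the first and 1 in the second, and reads that match several positions are not counted for any of them. Mir208b (13.0 and 31.7 CPM) and Mir499 (3.98 and 15.5 CPM), also looked up afterwards, were higher in replicate 2. Mir208a (5.06 and 4.05 CPM) was not. The epithelial markers Mir200c, Mir429 and Mir141, all 3 detected, summed to 5147 and 2245 CPM. The muscle sum was thus higher and the sum of these 3 epithelial markers lower in replicate 2. Other epithelial miRNAs, looked up after their values were seen, did not all follow: Mir205 had 1271 and 1459 CPM, Mir203 had 2230 and 2155 CPM and Mir200a had 146 and 143 CPM, while Mir200b had 866 and 468 CPM. The oligodendrocyte markers Mir219a-2 and Mir338 summed to 5062 and 3329 CPM, nearly all of it from Mir219a-2 (4953 and 3247 CPM). Whether such cells were present was not examined. The endothelial marker Mir126a had 25987 and 23442 CPM. The erythroid markers Mir451a and Mir144 summed to 277 and 340 CPM, and Mir223 of leukocytes and microglia had 293 and 225 CPM, while Mir142 had no row under that symbol. Mir142b, which was not on the lists, had 0 counts on the gene's strand in both libraries. No marker on the lists that had a row was at 0 in both libraries, but the lists were chosen with earlier results of these data known. The part of these cell types in the differences of the 10 genes was not tested.

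**Figure D4:**
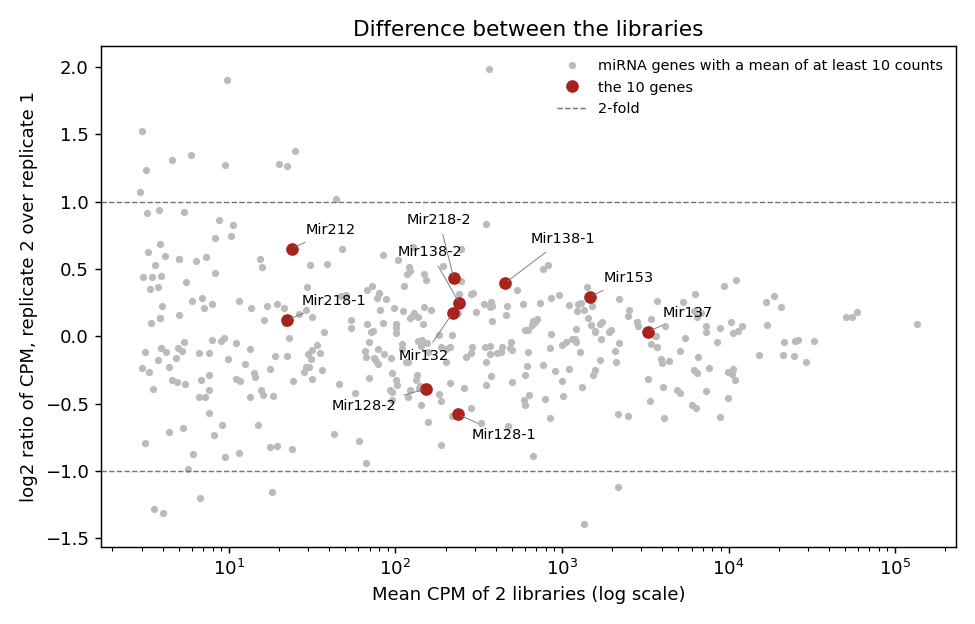
Log2 ratio of CPM, replicate 2 over replicate 1 (y axis), against mean CPM (x axis, log scale) for the 393 tested miRNA genes (grey) and the 10 genes (red); dashed lines mark 2-fold. All 10 genes lie within 2-fold, Mir137 lies at 0.03, Mir212 is the highest of the 10 at 0.65, and Mir128-1 (-0.58) and Mir128-2 (-0.39) lie below 0.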

How the data were processed

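The authors deposited read counts per miRNA gene, made on mm10 with GENCODE M4 per the accompanying text, with aligner, trimming and tool versions not given in the sources used here. The tables have no header. The third column was taken as the gene's strand because it holds nearly all counts, while 2.38% and 2.35% lay on the opposite strand, none of them in the 10 genes. Rows that name no gene (52.4% and 53.3% of 5947846 and 8656439 reads) were left out of totals. Nothing in the labels beyond replicate numbers and pool sizes separates the pools. Technical spread and differences in tissue between the pools cannot be told apart.

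IDs were matched without versions to GENCODE M21 (1894 of 1973). Genes sharing an identical run of 20 bases in another M21 hairpin were marked. CPM was computed over all gene rows. Ratios between libraries had 0.5 added to each count. All 10 genes are named; other names follow rules on rank, lists and seeds. The members and lists were chosen with earlier results of these data known. Alternatives covered strands, totals, edgeR 4.0.16 TMM and DESeq2 1.42.0 scaling, minimums, length and leaving out libraries. Python 3.11.15, SciPy 1.17.1, pandas 2.3.3, numpy 2.4.6, matplotlib 3.10.9 and R 4.3.3 were used. The binomial test was tested on simulated data with counting error only, without the further variation that the libraries showed.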

Additional observations from a re-analysis of the deposited data

How the results depend on the processing

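Levels and shares scale with the total used. Without Mir99a, the most abundant gene, in the total, the median level of the 10 genes was 266 CPM and their share of counts 0.734%. Without the 6 genes that share a run of 20 bases, 4 genes remained and their share was 0.501%. Of the 10 genes, 8 were called between the libraries with no minimum fold, where 203 of all 393 tested genes were. With a 1.5-fold minimum 1 was called, where 39 of 393 were, in place of 0 at 2-fold, where 14 of 393 were. None of the 10 was called at 2-fold with TMM (14 of 393 genes called), DESeq2 size factors (13 of 393) or both strands together (15 of 405). The same held with no minimum of the mean count (18 of 735) and a mean of at least 100 counts (4 of 275). At that last minimum Mir212 (51 and 115 counts) and Mir218-1 (59 and 92 counts) were not tested. The call of Mir132 without a minimum fold was lost with TMM (adjusted exact p = 0.059). Mir137 gained such a call with DESeq2 size factors (log2 ratio 0.07, adjusted exact p = 0.0013) and without Mir99a (0.05, adjusted exact p = 0.0267). Each of these scalings moves the log2 ratio of every gene by the same amount. No direction changed under them, but moves this small could hardly change one, so this is no check of the directions. Leaving out each library in turn gave a median level of 214 to 246 CPM, a share of 0.609% to 0.660%, and 6 to 8 of the 9 neighbouring pairs in the order that the means gave. No paired analysis was possible because the series has 1 group. With 51 and 59 counts in replicate 1, depth limits Mir212 and Mir218-1 most.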
